A study of Mus musculus with 8 samples.

Results

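Homologous recombination repairs breaks through both strands of DNA by copying from an intact sister chromatid, and it works in the S and G2 phases of the cell cycle. BRCA1 recruits PALB2, and PALB2 brings BRCA2, which acts on resected single-stranded DNA. RAD51B, RAD51C, RAD51D, XRCC2 and XRCC3 are related proteins that form the paralog complexes of the pathway. RAD52 anneals complementary single strands. It is central to recombination in yeast, whereas in mammalian cells BRCA2 is, and RAD52 acts in single-strand annealing and as a back-up.

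The 9 genes described here were Rad52, the paralog genes Rad51b, Rad51c, Rad51d, Xrcc2 and Xrcc3, and Brca1, Brca2 and Palb2, out of 55536 genes in the count table. They were found by symbol, and the group was chosen by the fold change of Rad52, which was among the genes most lowered by the Klf4 plasmid. All 9 passed the filter on low counts, as did 18266 genes in all. Because that contrast chose the group, fold changes of the 9 genes between the plasmids are given as a description with no test, and the number past the threshold is read against that over all genes and supports nothing. Batch effects, which the choice did not use, were tested.

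Polyadenylated RNA came from Min6, a β-cell line from a mouse insulinoma, labelled wild type in genotype. Control cells (n = 4) received pcDNA 3 empty vector and Klf4 cells (n = 4) received pGloMyc-Klf4, both by Lipofectamine 3000 for 48 h. The plasmid names point to unlike backbones, so effects of backbone and of Klf4 cannot be told apart, and the share of cells that took up plasmid is not given in the sources used here. Batch 1 held replicates 1 and 2 of each group, and batch 2 held replicates 3 and 4. The extraction text speaks of isolated islets, while all samples are named Min6.

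Total counts per library ranged from 45417853 to 52731176. Klf4, a zinc-finger transcription factor, lay between 36.1 and 42.8 CPM (counts relative to library size, TMM-scaled) in control and between 4530 and 5850 CPM in Klf4 libraries, endogenous and plasmid transcripts together. β-cell markers summed to 25800 to 32600 CPM in control and 24100 to 32800 CPM in Klf4 libraries, and 6 of the 11 were lower, where 36.6% of all tested genes passed an adjusted p of 0.05 (15.5% lower). The number lower was 1 in batch 1 alone, 5 in batch 2 alone and 2 without the batch term. Mafa, a β-cell transcription factor gene, was at -0.06 in batch 1 and -0.29 in batch 2 on the log2 scale (edgeR interaction test, adjusted p 0.00817). Of 6 fibroblast markers, 3 rose, and their summed level went from 2.61 to 3.84 CPM to 21 to 27.4 CPM, with Dcn at 17.6 ± 3.82 CPM (SD, n = 4) in Klf4 cells. Lum had 0 counts in every library, and Col3a1 had at most 3. Of 5 α-cell markers, 3 could be tested and 2 rose, and the summed level of the list overlapped between groups (59.4 to 88.8 against 55.7 to 96.6 CPM). Of 3 endothelial markers, 2 could be tested and 1 rose. It was Cdh5, named after its values were seen, which went from 0 counts in control to 0.403 ± 0.15 CPM (SD, n = 4). The list's sum was 3.82 to 4.15 CPM in control and 4.49 to 4.95 CPM in Klf4 libraries. The 1 macrophage and the 1 acinar marker that could be tested did not pass the threshold (summed levels of 5.63 to 6.23 against 5.48 to 7.16 CPM and of 1.36 to 3.92 against 1.63 to 3.07 CPM). The 3 δ-cell and PP-cell markers were under the filter, with a sum of at most 0.322 CPM. The part of these markers in the results below was not tested. In bulk RNA, fewer cells of a type and less RNA per cell cannot be told apart.

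Rad52 was the member with the largest difference between the plasmids. Rad52 (ENSMUSG00000030166, protein-coding) spans chr6:119902698-119922828 on the plus strand of GRCm38, with 5752 bases of exon that overlap no other annotated exon. Control replicates 1 to 4 had 362, 400, 321 and 328 counts, or 7.69, 8.22, 6.51 and 6.80 CPM. Klf4 replicates 1 to 4 had 244, 217, 234 and 232 counts, or 4.72, 4.79, 4.45 and 4.40 CPM. Every Klf4 library lay below every control library, and the control libraries were more spread than the Klf4 libraries. The mean went from 7.30 ± 0.79 to 4.59 ± 0.196 CPM (SD, n = 4), a log2 fold change of -0.67 (SE 0.08), or 37% less. It was -0.75 in batch 1 and -0.58 in batch 2. By log2 fold change it stood 72nd of the 2828 lower genes, and 4th of the 2727 lower genes whose average log2 CPM reached 1. These values chose the gene, so they support nothing further.

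The sequence upstream of Rad52 is shown because all its Klf4 libraries lay below all controls, and that of Brca2 because all its Klf4 libraries lay above. RefSeq start sites (GRCm38.p6) were matched for 7 of the 9 genes, with 9 starts, and Rad51d and Xrcc2 had no entry. The 250 bases before each start were searched on both strands for CACCC, the box bound by Krüppel-like factors, for GGGCGTGG or GGGTGTGG, which are longer words of that kind (the latter contains CACCC on the other strand), for TTTGGCGC or TTTCCCGC, words bound by E2F cell cycle factors, and for CCAAT. Lower case is plain sequence and capitals mark a match. The window for Rad52 is chr6:119902448-119902697 and that for Brca2 chr5:150522371-150522620, both on the plus strand.
Rad52: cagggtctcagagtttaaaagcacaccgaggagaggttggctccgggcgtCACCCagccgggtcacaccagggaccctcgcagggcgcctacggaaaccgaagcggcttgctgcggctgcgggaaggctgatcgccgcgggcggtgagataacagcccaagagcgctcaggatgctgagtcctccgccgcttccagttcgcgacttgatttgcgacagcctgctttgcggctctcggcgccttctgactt
Brca2: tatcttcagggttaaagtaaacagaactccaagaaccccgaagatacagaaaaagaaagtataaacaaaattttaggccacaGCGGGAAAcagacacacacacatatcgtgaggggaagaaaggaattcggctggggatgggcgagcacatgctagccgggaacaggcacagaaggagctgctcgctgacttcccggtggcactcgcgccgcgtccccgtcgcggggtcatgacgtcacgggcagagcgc

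In the Rad52 window there was 1 match, a CACCC beginning 200 bases before the start. In the Brca2 window there was also 1, TTTCCCGC on the minus strand, beginning 168 bases before the start. CACCC was in 5 of the 9 member windows and in 52% of 32851 windows of the same length over all RefSeq starts. GGGCGTGG or GGGTGTGG was in 0 of 9 and in 7.72% of all windows, TTTGGCGC or TTTCCCGC in 1 of 9 and 1.3%, and CCAAT in 4 of 9 and 33.8%. Xrcc3 held 6 CCAAT matches in its window, and the overlapping windows of Rad51b shared 1. A match is a string of letters, not a measured binding site.

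The genes beside Rad52 were measured for comparison. Erc1, which codes for a presynaptic and cell-cortex scaffold protein, begins 54531 bases upstream on the other strand and rose by 0.27 on the log2 scale (SE 0.04, edgeR adjusted p 5.11e-06), higher in 4 of 4 Klf4 libraries than in any control library. Wnk1, a kinase gene that ends 1141 bases beyond Rad52 on the other strand, had 396.6 ± 17.1 CPM in control and 373.1 ± 11.6 CPM in Klf4 cells (SD, n = 4), and its groups overlapped. Its log2 fold change was -0.09 (SE 0.03, edgeR adjusted p 0.031), and its call was lost in 4 of the 8 fits that left out a library each (control replicate 2 and Klf4 replicates 1, 2 and 4), with an adjusted p of 0.00157 to 0.693 over all alternatives. The non-coding 4930540M05Rik, transcribed away from the Rad52 start, had 2 to 10 counts per library and was not tested.

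Over the 8 libraries, the log2 CPM of Rad52 was followed most closely, among 12869 other genes, by Zfp280d with a Pearson r of 0.994. Next came Zfp39 with 0.991, Pogk and Gnl3 with 0.988 each, and Itpr1 with 0.985. All 5 were lower in Klf4 cells, with log2 fold changes of -0.42 (SE 0.04), -0.36 (SE 0.05), -0.23 (SE 0.03), -0.23 (SE 0.03) and -0.29 (SE 0.03) respectively. The points share the division into groups and batches, so these values describe likeness and were not tested.

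**Figure D1:**
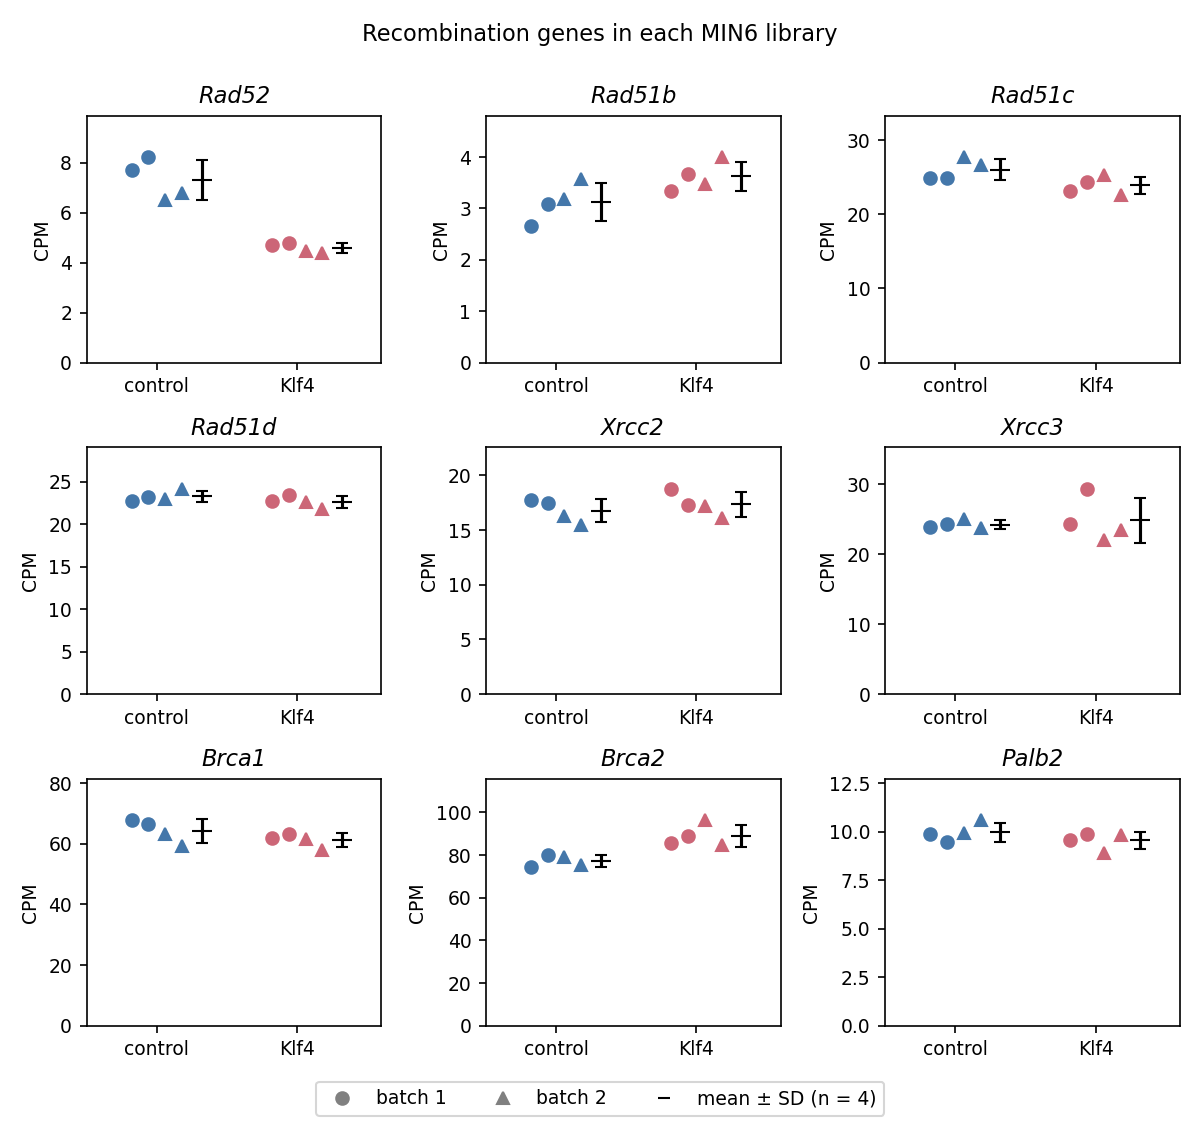
CPM of each of the 9 genes in every library, with control in blue and Klf4-transfected in red, batch 1 as circles and batch 2 as triangles, and the mean ± SD of 4 libraries in black. Rad52 and Brca2 are the genes whose groups do not overlap, with Rad52 at 6.51 to 8.22 CPM in control and 4.40 to 4.79 CPM in Klf4 cells.

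For each of the 5 paralog genes the groups overlapped. Rad51c, whose product takes part in both paralog complexes, had 24.9, 24.9, 27.7 and 26.6 CPM in control replicates 1 to 4. Its values in Klf4 replicates 1 to 4 were 23.2, 24.4, 25.3 and 22.6 CPM. Klf4 libraries lay below control libraries within each batch, but the groups overlapped across batches. The log2 fold change of Rad51c was -0.13 (SE 0.05).

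Rad51b, the least abundant member with 125 to 211 counts per library, had 2.66, 3.08, 3.18 and 3.58 CPM in control. In Klf4 cells Rad51b had 3.35, 3.67, 3.48 and 4.00 CPM. The groups overlapped, and the log2 fold change of 0.21 was accompanied by the largest SE of the 9 genes, 0.11.

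Xrcc3, the partner of Rad51c, had 23.9, 24.3, 25.1 and 23.7 CPM in control and 24.4, 29.4, 22.1 and 23.5 CPM in Klf4 cells. The Klf4 libraries of batch 1 lay above the controls and those of batch 2 below, and replicate 2 was the highest. Its log2 fold change was 0.03 (SE 0.06), with 0.15 in batch 1 and -0.09 in batch 2, and it was -0.06 without Klf4 replicate 2. Xrcc3 shares 12 exonic bases with Klc1 on the opposite strand.

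Rad51d had 22.8 to 24.2 CPM in control and 21.8 to 23.5 CPM in Klf4 cells, with a log2 fold change of -0.04 (SE 0.05). Xrcc2, which like Rad51b and Rad51d belongs to the larger paralog complex, had 15.5 to 17.8 and 16.1 to 18.8 CPM, with a log2 fold change of 0.05 (SE 0.05). For both genes the groups overlapped and the difference was smaller than its own standard error.

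Within the BRCA1, PALB2 and BRCA2 chain, the groups were apart for Brca2 and overlapped for Brca1 and Palb2. Brca2 (ENSMUSG00000041147, chr5:150522630-150570329, plus strand), which acts at resected DNA ends, had 74.2, 80.2, 79.3 and 75.2 CPM in control replicates 1 to 4. Klf4 replicates 1 to 4 had 85.5, 89.0, 96.4 and 84.8 CPM, each above every control library. The mean went from 77.2 ± 2.97 to 88.9 ± 5.32 CPM (SD, n = 4), a log2 fold change of 0.20 (SE 0.04), or 15.2% more. It was 0.17 in batch 1 and 0.24 in batch 2.

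Brca1, the ubiquitin ligase subunit that starts the chain, had 67.8, 66.6, 63.1 and 59.2 CPM in control and 61.8, 63.3, 61.6 and 58.0 CPM in Klf4 cells. The groups overlapped, and the log2 fold change was -0.07 (SE 0.04). Palb2, the bridge between BRCA1 and BRCA2, had 9.47 to 10.6 CPM in control and 8.90 to 9.90 CPM in Klf4 cells, with a log2 fold change of -0.06 (SE 0.07). A pseudogene, Gm16326, lies on the opposite strand within 414 of the 7342 exonic bases of Palb2 and had 0 counts in every library, and whether counting used strand is not given in the sources used here.

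**Figure D2:**
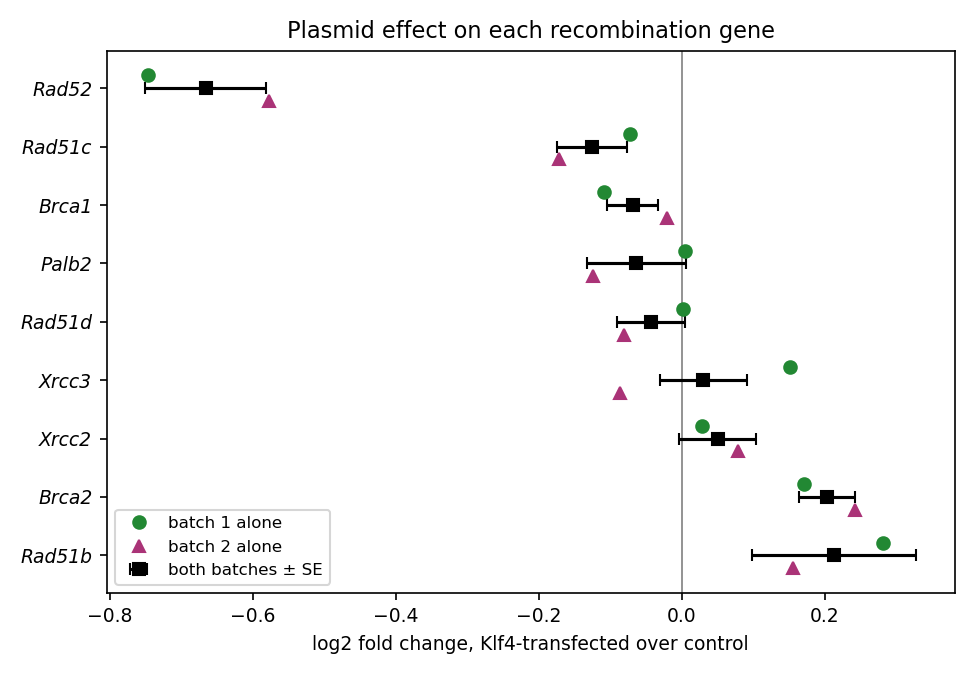
Log2 fold change of Klf4-transfected over control cells (horizontal axis) for each of the 9 genes, with black squares for the fit over both batches ± SE, green circles for batch 1 alone and purple triangles for batch 2 alone. Rad52 lies at -0.67 and Brca2 at 0.20 with both batches on the same side of 0, whereas Xrcc3, Rad51d and Palb2 have batches on opposite sides.

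In all, 2 of the 9 genes passed an adjusted p of 0.05 in edgeR's quasi-likelihood fit, Brca2 higher and Rad52 lower. Over all tested genes 36.6% passed (21.1% higher and 15.5% lower), and groups did not overlap for 26.1% (17.2% higher and 8.93% lower), against the same 2 of the 9. Nothing is read from these counts, since the contrast chose the group. The median log2 fold change was -0.04 over the 9 genes and -0.01 over all tested genes. Rad51c also passed without control replicate 1 or 2 or Klf4 replicate 2 or 3, and Brca1 without control replicate 4 or Klf4 replicate 3, so that 4 of the 9 passed without Klf4 replicate 3. The higher share of all calls was 57.7%, and 72.7% when the scaling used abundant genes alone (average log2 CPM from 6 upwards), under which Rad52 was at -0.63 and Brca2 at 0.24.

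Batch was tested independently of the choice of genes. Brca1 was lower in batch 2 than in batch 1, by a log2 difference of -0.10 (SE 0.04, edgeR adjusted p 0.0447), lower in both batch 2 libraries of each group than in either batch 1 library of that group. It was the only 1 of the 9 genes past the threshold, where 25.1% of all tested genes were (13.4% higher and 11.6% lower in batch 2). The call was lost in 6 of the 8 fits that left out a library each (all but those without control replicate 3 or Klf4 replicate 3). Rad52 had a log2 difference of -0.19 between batches (SE 0.08, edgeR adjusted p 0.113) and Xrcc2 one of -0.13 (SE 0.05, edgeR adjusted p 0.0753).

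The effect of the plasmid was not shown to depend on the batch for any of the 9 genes. With edgeR's interaction test 0 of 9 passed, against 0.766% of all tested genes, and 0 passed with DESeq2 or limma-voom. At an unadjusted p under 0.05 there was 1, Xrcc3, with an interaction of -0.25 (SE 0.11) on the log2 scale (edgeR p 0.0229, adjusted p 0.357). For Rad52 the interaction was 0.15 (SE 0.17, edgeR adjusted p 0.82).

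Levels were compared between the genes per kb of exon. In control cells Xrcc3 was highest at 8.82 ± 0.229 CPM per kb (SD, n = 4), followed by Brca1 at 7.52 ± 0.454, Rad51d at 6.28 ± 0.169, Rad51c at 5.94 ± 0.316 and Brca2 at 5.66 ± 0.217 CPM per kb. Xrcc2 followed at 3.22 ± 0.208 CPM per kb. Palb2 at 1.36 ± 0.067, Rad52 at 1.27 ± 0.137 and Rad51b at 0.832 ± 0.102 CPM per kb were the lowest. Ranges of neighbours overlapped between Rad51d and Rad51c, between Rad51c and Brca2, and between Palb2 and Rad52, so these pairs were not separated. The other neighbours did not overlap.

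In Klf4 cells Rad52 was the lowest of the 9 genes. It had 0.765 to 0.833 CPM per kb against 0.891 to 1.06 CPM per kb for Rad51b, while in control cells Rad52 (1.13 to 1.43) lay above Rad51b (0.707 to 0.954). Brca2 moved from below Rad51d to the third place, with 6.52 ± 0.39 CPM per kb (SD, n = 4) against 6.10 ± 0.188 for Rad51d, and their ranges overlapped (6.22 to 7.07 and 5.88 to 6.33 CPM per kb). These levels rest on the length of all annotated exons of a gene together, so a gene that uses few of its exons is understated.

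**Figure D3:**
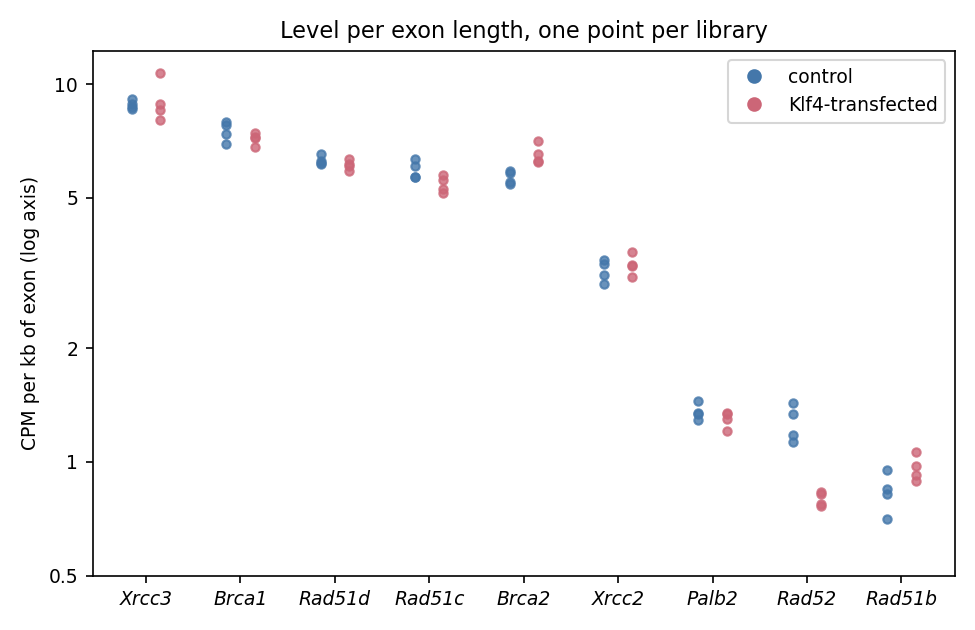
Level of each of the 9 genes in CPM per kb of exon (log axis), 1 point per library, control in blue and Klf4-transfected in red, ordered by the control mean. The order runs from Xrcc3 at 8.82 to Rad51b at 0.832 CPM per kb in control, and Rad52 falls below Rad51b in the Klf4 libraries.

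The other genes of the pathway were taken from lists by role. Of 55 further recombination and Fanconi anaemia genes, 15 (27.3%) passed the threshold, 4 higher and 11 lower, where 36.6% of all tested genes passed. Their median log2 fold change was -0.03, against -0.01 over all tested genes. Scaled to abundant genes, 6 were higher and 4 lower, and the medians were 0.00 and 0.02.

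Of the 8 genes of end resection and its helicases, 4 were lower, and 3 with the other scaling. Blm, the helicase lost in Bloom syndrome, had 43.2, 43.6, 41.7 and 41.4 CPM in control and 34.9, 36.1, 38.2 and 36.2 CPM in Klf4 cells. The groups did not overlap, and its log2 fold change was -0.22 (SE 0.04, edgeR adjusted p 0.000138). The nuclease-helicase Dna2 fell by 0.13 on the log2 scale (SE 0.03, edgeR adjusted p 0.00331) and the Werner helicase Wrn by 0.19 (SE 0.05, edgeR adjusted p 0.00658). Nbn, of the complex that senses DNA ends, fell by 0.13 on that scale (SE 0.04, edgeR adjusted p 0.0209), which did not pass with the other scaling (adjusted p 0.0949; 0.0062 to 0.188 over all alternatives) or without control replicate 4 or Klf4 replicate 4.

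Among 13 genes of single-strand binding and filament formation, 2 passed, Rad54b lower at -0.15 (SE 0.06, edgeR adjusted p 0.0452) and Sfr1 higher at 0.09 (SE 0.03, edgeR adjusted p 0.0288). Neither passed with the replicate number as a block (adjusted p 0.0563 for Rad54b, 0.0266 to 0.259 over all alternatives, and 0.0505 for Sfr1, 0.00249 to 0.448). Without 1 library the call was lost in 5 of 8 fits for Rad54b (control replicates 1 and 3 and Klf4 replicates 2, 3 and 4) and in 6 of 8 for Sfr1 (all but those without control replicate 3 or Klf4 replicate 3).

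Of 7 partners of BRCA1, 1 passed (with the other scaling 2, 1 in each direction): Uimc1, the ubiquitin-binding subunit that brings BRCA1 to damaged chromatin. It had 52.5, 52.6, 53.5 and 53.2 CPM in control and 48.3, 47.7, 43.7 and 46.5 CPM in Klf4 cells. All Klf4 libraries lay below all controls, and the log2 fold change was -0.19 (SE 0.04, edgeR adjusted p 0.000377). Bard1, the obligate partner of BRCA1, named here with its values already known, stood at 0.13 (SE 0.05, edgeR adjusted p 0.0722).

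Among 8 helicases and factors that limit or aid recombination, 2 were higher and 2 lower (50%). Of all tested genes 36.6% passed (21.1% higher and 15.5% lower). With the other scaling 2 of the 8 were higher and none lower. The number past the threshold was 3 in batch 1 alone, 2 in batch 2 alone and 1 without the batch term. BC030867, the RefSeq gene Hrob, whose product recruits the MCM8 and MCM9 helicase, had 16.3, 14.1, 13.4 and 15.7 CPM in control and 18.9, 17.2, 18.1 and 18.9 CPM in Klf4 cells. No Klf4 library overlapped the controls, and it rose by 0.30 on the log2 scale (SE 0.06, edgeR adjusted p 0.000824). Mcm9 was higher at 0.19 (SE 0.06, edgeR adjusted p 0.0206) and its partner Mcm8 lower at -0.15 (SE 0.05, edgeR adjusted p 0.0264). Helq was lower at -0.13 (SE 0.04, edgeR adjusted p 0.0247), and its groups overlapped. Its log2 fold change was -0.25 in batch 1 and 0.004 in batch 2 (edgeR interaction test, adjusted p 0.114). Neither Mcm8 nor Helq passed with the other scaling (adjusted p 0.105 for Mcm8, 0.00524 to 0.469 over all alternatives, and 0.136 for Helq, 0.000212 to 0.973). Calls were lost in 4 of 8 fits without 1 library for Mcm9 (control replicates 1 and 3, Klf4 replicates 3 and 4, with a log2 fold change of 0.12 without control replicate 3), in 3 for Mcm8 (control replicate 1, Klf4 replicates 2 and 4) and in 2 for Helq (Klf4 replicates 1 and 2).

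Of 11 Fanconi anaemia genes, 1 was higher and 1 lower (2 higher and none lower with the other scaling). The ubiquitin ligase gene Fancl rose by 0.30 on the log2 scale (SE 0.10, edgeR adjusted p 0.0181). It averaged 5.10 ± 0.821 CPM in control against 6.26 ± 0.31 CPM in Klf4 cells (SD, n = 4), and the groups overlapped. That call was lost in 6 of 8 fits without 1 library (all but those without control replicate 2 or Klf4 replicate 2). The translocase gene Fancm fell by 0.13 on the log2 scale (SE 0.04, edgeR adjusted p 0.00764), with no overlap between groups, and did not pass with the other scaling (adjusted p 0.0592, 0.00181 to 0.459 over all alternatives). Of 8 genes of junction resolution and dissolution, Slx4 and Top3a were lower, at -0.12 (SE 0.03, edgeR adjusted p 0.00507) and -0.14 (SE 0.05, edgeR adjusted p 0.0224). Neither passed with the other scaling (adjusted p 0.0523 for Slx4, 0.00165 to 0.241 over all alternatives, and 0.095 for Top3a, 0.0189 to 0.281), and Top3a did not pass without Klf4 replicate 1.

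Genes of the competing end-joining pathway were called about as often as all genes. Of 13 genes of non-homologous end joining and of the block to resection, 5 fell and none rose (38.5%, against 36.6% of all tested genes, 15.5% lower and 21.1% higher), and the median log2 fold change was -0.08. With the other scaling 5 were lower and 1 higher. Trp53bp1, which shields DNA ends from resection, had 149, 152, 155 and 154 CPM in control and 124, 127, 132 and 128 CPM in Klf4 cells. With no overlap between groups, its log2 fold change was -0.25 (SE 0.03, edgeR adjusted p 1.19e-07). Its effector Rif1 was at -0.21 (SE 0.03, edgeR adjusted p 3.23e-05), the ligase gene Lig4 at -0.25 (SE 0.05, edgeR adjusted p 0.000695) and the kinase gene Prkdc at -0.22 (SE 0.05, edgeR adjusted p 0.00118). The groups of Prkdc overlapped. Its log2 fold change was -0.32 in batch 1 and -0.11 in batch 2, where it did not pass (edgeR adjusted p 0.12).

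RAD52 shares single-strand annealing with the nuclease of ERCC1 and ERCC4. Ercc1 rose by 0.25 on the log2 scale (SE 0.06, edgeR adjusted p 0.00253). It averaged 12.8 ± 0.808 CPM in control and 15.1 ± 0.785 CPM in Klf4 cells (SD, n = 4) and was higher in 4 of 4 Klf4 libraries than in any control. Ercc4 was at -0.07 (SE 0.05, edgeR adjusted p 0.325). In this list of 10 genes for annealing and alternative end joining, 4 (40%) passed, where 36.6% of all tested genes did. Of those 4, 2 rose and 2 fell (3 higher and 1 lower with the other scaling). Besides Ercc1 they were Xrcc1 at -0.19 (SE 0.04, edgeR adjusted p 0.000257), Lig1 at 0.10 (SE 0.03, edgeR adjusted p 0.0102) and Lig3 at -0.09 (SE 0.04, edgeR adjusted p 0.0488). Lig3 did not pass with the replicate number as a block (adjusted p 0.0688, 0.0265 to 0.249 over all alternatives) or without control replicate 2 or 4 or Klf4 replicate 1 or 4, and Lig1 did not pass without control replicate 2 or 4 or Klf4 replicate 3. Ercc4 was named after its values were seen.

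Of 15 damage-signalling genes, 5 were lower and none higher (3 lower and 1 higher with the other scaling). That is 33.3%, where 36.6% of all tested genes passed and 15.5% were lower. Atm, the kinase that signals broken DNA ends, had 107, 111, 116 and 110 CPM in control and 88.4, 89.1, 99.9 and 90.5 CPM in Klf4 cells. The groups did not overlap, and the log2 fold change was -0.27 (SE 0.03, edgeR adjusted p 1.05e-06). Atr, the kinase for single-stranded DNA, was at -0.19 (SE 0.04, edgeR adjusted p 0.00207). Hus1 and Rad1, of the clamp that activates ATR, were at -0.18 (SE 0.06, edgeR adjusted p 0.0128) and -0.17 (SE 0.06, edgeR adjusted p 0.0282). Neither passed with the other scaling (adjusted p 0.0504 for Hus1, 0.000669 to 0.0844 over all alternatives, and 0.0859 for Rad1, 0.00992 to 0.54), and Rad1 did not pass without control replicate 3 or Klf4 replicate 4.

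Markers of the S and G2 phases, when recombination acts, were measured beside these genes. Their summed level was 4490 to 4660 CPM in control and 4490 to 4650 CPM in Klf4 libraries, so the groups overlapped. Between batches 10 of the 23 markers differed, where 25.1% of all tested genes did. Mki67, named after its values were seen, was at -0.18 in batch 1 and 0.06 in batch 2 on the log2 scale (edgeR interaction test, adjusted p 0.0238). Of 23 markers 5 (21.7%) passed, 4 higher and 1 lower (6 higher and none lower with the other scaling). Over all tested genes 36.6% passed (21.1% higher and 15.5% lower). The median log2 fold change of the markers was 0.01. The number of markers past the threshold was 2 in batch 1 alone, 4 in batch 2 alone and 1 without the batch term. The lower marker was Mcm7 at -0.08 (SE 0.03, edgeR adjusted p 0.0178), named after its values were seen. E2f2, an E2F factor that drives S-phase genes, rose by 0.30 on the log2 scale (SE 0.04, edgeR adjusted p 2.86e-06) and Ccne1, a cyclin of S-phase entry, by 0.15 (SE 0.05, edgeR adjusted p 0.0149). The call of Ccne1 was lost in 5 of 8 fits without 1 library (control replicates 1, 3 and 4 and Klf4 replicates 1 and 4), and its log2 fold change was 0.09 without Klf4 replicate 4. E2f7 rose by 0.13 (SE 0.04, edgeR adjusted p 0.0132) and Rrm2 by 0.08 (SE 0.03, edgeR adjusted p 0.0213). Their calls were lost in 4 and 6 of 8 such fits, respectively. The call of E2f2 held in all 17 alternatives.

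**Figure D4:**
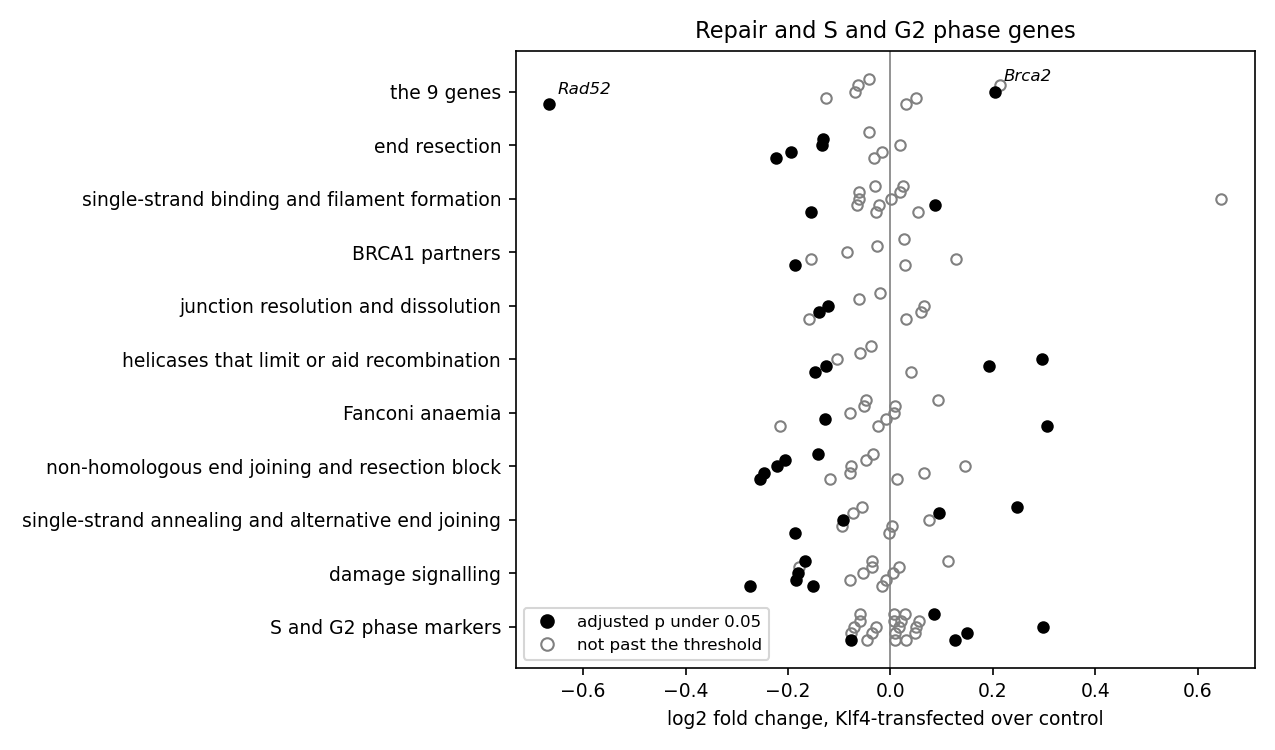
Log2 fold change of Klf4-transfected over control cells (horizontal axis) for each gene of the 9 and of the repair and cell cycle lists (rows), with filled points for an adjusted p under 0.05 and open points for genes not past it. Rad52 at -0.67 lies apart from the other filled points, which run from -0.27 (Atm) to 0.30 (Fancl), and the open point at 0.65 is Dmc1, a meiotic recombinase gene at 0.227 ± 0.115 CPM (SD, n = 4) in control.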

How the data were processed

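The authors deposited 1 table of raw read counts per gene, with a column for each of 8 libraries. FastQC, STAR, featureCounts, edgeR and the build mm10 are named in the submitters' processing notes, and the file name speaks of cutadapt trimming. Versions and strand setting are not given in the sources used here. All 55536 pairs of identifier and symbol matched GENCODE M21 (GRCm38), which gave positions and exon lengths.

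Counts were fitted with edgeR 4.0.16 (R 4.3.3): filterByExpr (minimum count 10, 18266 genes kept), TMM factors, terms for batch and plasmid as the series' design text describes, the quasi-likelihood test, and Benjamini-Hochberg adjustment over all tested genes with a threshold of 0.05. SE is the log2 fold change divided by the square root of F. CPM are TMM-scaled. The procedure was run on simulated data as a check of the code. Those data had fewer changed genes, and larger changes than most given here, so they do not bear on these calls. Alternatives used limma 3.58.1 and DESeq2 1.42.0. Deviations from the group means correlated at 0.459 to 0.614 between same-numbered libraries over 10485 genes, and at 0.459 to 0.574 between libraries of other numbers in the same batch. What the numbers share is thus not told apart from batch, and a fit with the number as a block was run as an alternative. After batch means were removed the values were -0.0463 in batch 1 and 0.0783 in batch 2.

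The members, gene lists and rules were chosen with earlier results of these data known. Named were the 9 genes, Klf4, up to 4 genes of largest change per list and an average log2 CPM not below 0, the 5 genes most like Rad52 among those with an average log2 CPM from 1, and its nearest tested neighbours. Some genes that the rule names are not reported here. Fbxo18 was matched as Fbh1, Hrob as BC030867, and Shld3 was not matched. Nothing says that the replicates came from separate cultures beyond the term biological replicates, so p-values measure the spread between these libraries.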

Additional observations from a re-analysis of the deposited data

Results flagged for a closer look

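The effect of the plasmid on Klf4 itself differed between the batches, with an interaction of 0.371 on the log2 scale (SE 0.07, edgeR interaction test, adjusted p 0.0057) and log2 fold changes of 6.78 in batch 1 and 7.17 in batch 2. That on Mafa differed too, with an interaction of -0.249 on the log2 scale (SE 0.05, edgeR interaction test, adjusted p 0.00817). Libraries far from the other 3 of their group were looked for in 112 sets of 4 values of the named genes, of which chance gives about 5.6, and 2 were found. Prkdc had 68.3 CPM in Klf4 replicate 3, above the other Klf4 libraries. Rrm2 had 162 CPM in control replicate 3, above the other controls.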

How the results depend on the processing

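Rad52 and Brca2 kept their direction and their side of the threshold in all 17 alternatives, with log2 fold changes of -0.747 to -0.577 and 0.148 to 0.242. These are refits of the libraries that chose the group, so they describe the values and give no further support. The number of the 9 genes past the threshold was 2 to 4 when 1 library was left out. Rad51c passed in 7 of the 17 alternatives and Brca1 in 2. These genes near 0 changed sign without passing the threshold: Rad51d (0.00138 in batch 1 alone), Palb2 (0.00532 in batch 1 alone) and Xrcc3 (-0.0856 in batch 2 alone, and -0.0574 to 0.0609 when 1 library was left out), as did Helq in batch 2 alone (0.00357). Without the batch term 4116 of all genes passed against 6684, and 6 of the 55 other recombination genes against 15. For those 55 genes the number was 8 in each batch alone, 7 at an adjusted p under 0.01 and 10 to 16 without 1 library. With the replicate block 2 of the 9 genes and 13 of the 55 passed, and among named genes the block ended the calls of Rad54b, Sfr1 and Lig3 and no other. The batch difference of Brca1 was the 1 such call, against 0 with DESeq2 size factors, with the DESeq2 Wald test and with no low-count filter, and 0 to 1 without 1 library. The causes were not tested. The scaling to abundant genes was chosen after seeing the data. Rad52 and Rad51b, at 217 to 400 and 125 to 211 counts per library, are the members whose depth limits precision most.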
